A study of Mus musculus with 12 samples.

Results

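The genes described here are 30 genes of cholesterol synthesis, sensing, uptake, efflux and storage, taken as a pathway list and found by symbol among the 35523 mouse genes with at least 1 transcript in the deposited files. Each symbol matched 1 gene identifier. By role the list holds 7 enzymes of the mevalonate steps, 11 enzymes from squalene to cholesterol, 4 genes of sterol sensing and 8 genes of transport, efflux and storage. All 30 passed the filter on low counts in each comparison below, so none was left out.

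The cells were the stromal vascular fraction of epididymal white adipose tissue from 12-week-old male ob/ob mice, which lack functional leptin and are obese, so every group shares that genotype and no lean control was sequenced. The confluent primary cells received an adipogenic cocktail of IBMX, dexamethasone and insulin together with 1 µM rosiglitazone (Rosi), a PPARγ agonist, or its DMSO vehicle (Veh), followed by insulin with Rosi or DMSO, and were lysed on day 4 after a short cycloheximide pulse that holds ribosomes on their mRNA. RNA of the lysate (input) and RNA of the pooled heavy fractions of a sucrose gradient (polysome) were sequenced as poly(A) libraries. The stromal vascular fraction is a mixture of cell types, and in such bulk RNA fewer cells of a type and less RNA per cell cannot be told apart.

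The 12 deposited libraries held 17446517 to 24016101 estimated reads each, summed over all transcripts. Input Veh replicates 2 and 3 were identical in every value and were counted once, which left 11 libraries, with n = 2 for input Veh and n = 3 for input Rosi, polysome Veh and polysome Rosi. The labels call them biological replicates without naming animals or cultures, so p-values here cover no more than the spread among these libraries, which may be technical. The separation of polysome from input took 67.4% of the variance on the first principal component, where polysome Veh replicate 1 lay at -44.7 and the other polysome Veh libraries at -23.4 and -18.0. Adipocyte markers summed to 464 to 534 counts-per-million (CPM) in input Veh and 1158 to 1446 in input Rosi, and macrophage markers to 18596 to 21313 and 13616 to 15744, with none of either list at 0 in all libraries. In polysome RNA the adipocyte sums were 524 to 648 CPM in Veh and 1876 to 2249 in Rosi, and the macrophage sums 18650 to 24080 and 16841 to 21238. In input Veh these sums rested mostly on a few genes. Lpl had 196 and 211 CPM there and Cebpa 181 and 241, and Lyz2 alone had 10196 and 11175. Adipoq had 0.673 and 0.16 CPM in input Veh and 36.3, 29.3 and 31.4 in input Rosi. Over the 12 adipocyte markers the median log2 fold change of Rosi over Veh in input was 3.37, with 11 above 0 and 1 below. The part of these cell types in the values below was not tested.

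Cholesterol is built from acetyl-CoA through mevalonate, isoprenoid diphosphates, squalene and a chain of sterol intermediates, most of them made in the endoplasmic reticulum. When sterols in that membrane are low, SCAP escorts the transcription factor SREBP2, the product of Srebf2, to the Golgi, where it is cut and released to switch on synthesis and uptake genes, and when sterols are high the INSIG proteins hold SCAP back. Surplus cholesterol is exported by transporters such as ABCA1 and ABCG1, whose genes are targets of the oxysterol receptor LXR, or stored as esters, and adipocytes keep a large pool of free cholesterol around their lipid droplets.

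The genes differed widely in level. Per transcript length, in transcripts-per-million (TPM) averaged over the 11 libraries, Npc2, which hands cholesterol out of the lysosome lumen, was the highest at 525 ± 49.0 (SD), followed by Fdps, the farnesyl diphosphate synthase, at 113 ± 25.0. The ranges of these over the libraries, 439 to 588 TPM for Npc2 and 84.1 to 152 TPM for Fdps, overlapped neither each other nor the next gene. Every later neighbour in the order overlapped in range, from Npc1, the membrane partner of Npc2, at 50.6 ± 3.26 TPM, through Insig2, Nceh1, Msmo1 and Soat1 between 46.8 and 48.7 TPM, down to Mylip at 7.63, Abcg1 at 7.06 and Lss at 4.60 TPM. Insig2 had the widest range of the genes near 50 TPM, from 20.8 to 70.2, with input means of 31.4 and 32.5 and polysome means of 67.2 and 57.8 TPM in Veh and Rosi. The smallest estimated count of any member in any library, summed over its transcripts, was 155, for Tm7sf2. Single transcripts, given below, can hold fewer.

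**Figure D1:**
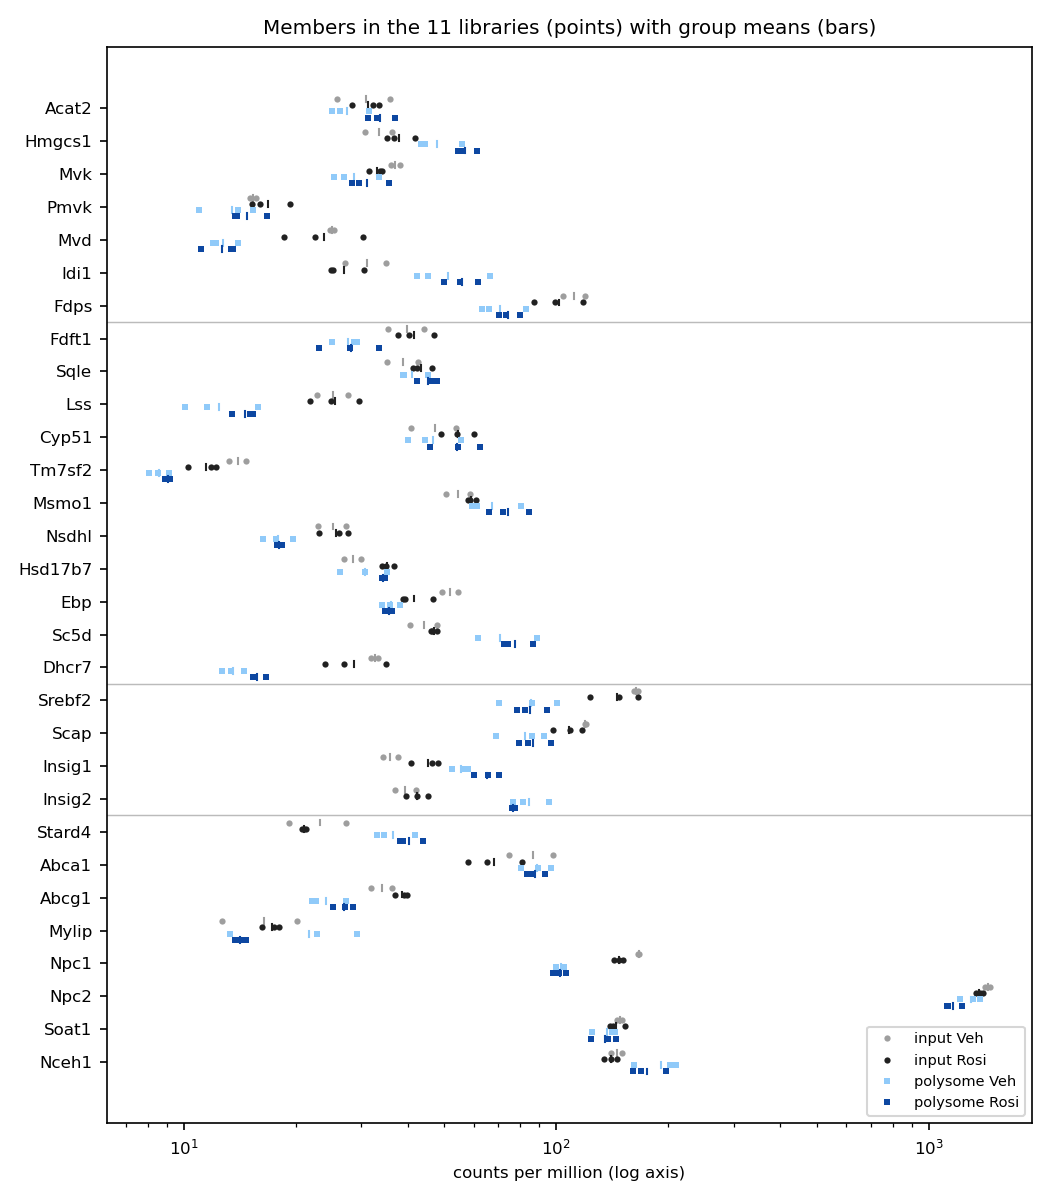
Level of each of the 30 genes in counts-per-million (horizontal log axis) in every library, with input as circles and polysome as squares, Veh light and Rosi dark, group means as short bars and grey lines between the roles. Dhcr7, Lss and Srebf2 lie lower in polysome than in input, Idi1, Insig2 and Stard4 lie higher, and Rosi and Veh points of 1 fraction mostly lie together.

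The comparison of Rosi with Veh within input asks whether the treatment changed the RNA level of these genes. In edgeR's quasi-likelihood test, with calls at a Benjamini-Hochberg adjusted p under 0.05 and a log2 fold change beyond 0.2, 0 of the 30 genes were called higher, against 1.13% of the 13603 genes tested, and 0 were called lower, against 0.206%. Without adjustment, 3 were higher and 1 lower at p under 0.05, against 9.2% and 7.79% of all genes, and DESeq2 also called 0. The groups did not overlap for 3 genes higher in Rosi and 6 lower, against 12.8% and 23.9% of all genes, so these counts were near the background. The median log2 fold change was 0.06 for the members and 0.01 for all genes.

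The largest difference in input was that of Insig1, the INSIG gene that SREBP2 itself induces. Its levels were 37.6 and 34.2 CPM in input Veh and 46.4, 40.8 and 48.2 in input Rosi. Every Rosi library lay above both Veh libraries, with a log2 fold change of 0.40 ± 0.11 (SE) and an adjusted p of 0.0956. Hsd17b7, a ketoreductase of the late sterol steps, had 29.9 and 27.0 CPM in Veh and 34.1, 34.9 and 36.8 in Rosi, also without overlap, with a log2 fold change of 0.38 ± 0.11 and an adjusted p of 0.108. Both differences were upward and missed the adjusted threshold. Cyp51, the lanosterol demethylase, had 53.7 and 40.9 CPM in Veh and 54.2, 49.0 and 60.3 in Rosi, where the groups overlapped, with a log2 fold change of 0.27 ± 0.13 and an adjusted p of 0.306. Abcg1, the transporter that passes cholesterol to lipoprotein particles, had 31.8 and 36.4 CPM in Veh and 39.1, 39.8 and 36.8 in Rosi, and its log2 fold change was 0.25 ± 0.10 with an adjusted p of 0.251.

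At the other end stood Abca1, which loads cholesterol onto lipid-poor apolipoproteins. It had 74.9 and 98.1 CPM in input Veh and 80.8, 65.1 and 57.9 in input Rosi, so that the groups overlapped, with a log2 fold change of -0.28 ± 0.14 and an adjusted p of 0.306. The sterol isomerase gene Ebp had 49.3 and 54.4 CPM in Veh against 46.6, 38.7 and 39.4 in Rosi, with every Rosi library below both Veh libraries, a log2 fold change of -0.25 ± 0.10 and an adjusted p of 0.242. Tm7sf2, a sterol reductase, had 13.3 and 14.7 CPM in Veh and 11.9, 10.3 and 12.2 in Rosi, again without overlap, with a log2 fold change of -0.22 ± 0.14. The ABC transporters therefore stood on opposite sides of 0, and neither passed the test. Macrophage markers lay below 0 in 14 of 14 genes of that list in the same comparison, with a median log2 fold change of -0.37.

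By role, the mevalonate enzymes had 3 genes above 0 and 4 below, from -0.14 for Idi1 to 0.25 for Hmgcs1, the HMG-CoA synthase. The enzymes from squalene on had 8 above and 3 below, with Sqle, the squalene epoxidase, at 0.23 and its 95% interval from -0.02 to 0.48. Of all genes 48.1% lay below 0. Srebf2 was at -0.10 with an interval from -0.34 to 0.13, Scap at -0.08, and Insig2 at 0.18. The widest interval in this comparison was that of Mylip, the ubiquitin ligase that removes lipoprotein receptors, from -0.22 to 0.51, so a change of 2-fold in either direction lay outside the interval of every gene on the list. The calls rested partly on single libraries: without input Rosi replicate 1, Insig1 (0.39) and Hsd17b7 (0.41) were called higher and Ebp (-0.33) and Abca1 (-0.42) lower, among 1580 genes called in place of 182.

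The same comparison in polysome RNA asks whether the mRNA found on heavy polysomes changed. Here 0 of 30 genes were called higher, against 0.633% of 13436 genes, and 0 lower, against 0.0223%, and DESeq2 called 0. Without adjustment, 1 was higher and 1 lower at p under 0.05, which 4.73% of all genes met in either direction. The groups did not overlap for 2 genes higher in Rosi, Insig1 and Dhcr7, and for 0 lower, against 4.58% and 4.38% of all genes. The members' median was 0.09 and that of all genes was -0.01. Of the mevalonate enzymes 6 of 7 lay above 0, and of the later enzymes 10 of 11, each with an interval that held 0 except that of Acat2, the cytosolic thiolase. Of all genes 52.3% lay below 0. The enzymes also varied together between replicates, as given below, so their signs are not separate observations.

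Acat2 had 31.4, 25.0 and 26.3 CPM in polysome Veh and 33.1, 31.2 and 37.0 in polysome Rosi, and the groups met between 31.2 and 31.4. Its log2 fold change was 0.28 ± 0.13 with a 95% interval from 0.01 to 0.56 and an adjusted p that edgeR gave as 1. In input it had 35.9 and 25.9 CPM in Veh and 33.5, 28.3 and 32.3 in Rosi, with overlap. Hmgcs1 had 55.9, 44.4 and 43.4 CPM in Veh and 54.5, 55.4 and 61.3 in Rosi, where polysome Veh replicate 1 lay among the Rosi values, with a log2 fold change of 0.24 ± 0.13. Cyp51 and Ebp overlapped as well, with 55.6, 40.0 and 44.4 CPM in Veh and 54.4, 45.7 and 62.6 in Rosi for Cyp51 and 35.9, 38.2 and 34.2 against 36.2, 36.0 and 34.6 for Ebp. Insig1 had 52.6, 57.8 and 56.4 CPM in Veh and 70.4, 60.2 and 65.5 in Rosi, without overlap, and its log2 fold change was 0.22 ± 0.11. Insig1 was thus the gene whose Rosi libraries lay above all Veh libraries in both fractions, and it was called in neither.

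The lowest gene in polysome RNA was Mylip, with 13.3, 29.2 and 22.8 CPM in polysome Veh and 14.7, 13.8 and 14.2 in polysome Rosi. The Rosi libraries lay within 1 CPM of each other, while the Veh libraries differed by more than 2-fold, with polysome Veh replicate 1 below all Rosi libraries. The log2 fold change was -0.63 ± 0.22 with an interval from -1.10 to -0.16 and an adjusted p of 0.671, and without polysome Veh replicate 1 the gene was called lower at -0.88, with an adjusted p of 0.00537. Input levels of Mylip were 12.7 and 20.2 CPM in Veh and 16.3, 17.5 and 18.1 in Rosi, a log2 fold change of 0.14 ± 0.17. Npc2 had 1216, 1372 and 1318 CPM in polysome Veh and 1230, 1119 and 1128 in polysome Rosi, with a log2 fold change of -0.18 ± 0.10, and Insig2 had 95.6, 76.7 and 81.5 against 77.5, 76.1 and 76.6, with a log2 fold change of -0.15 ± 0.11. In both genes 1 Rosi library lay above the lowest Veh library.

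**Figure D2:**
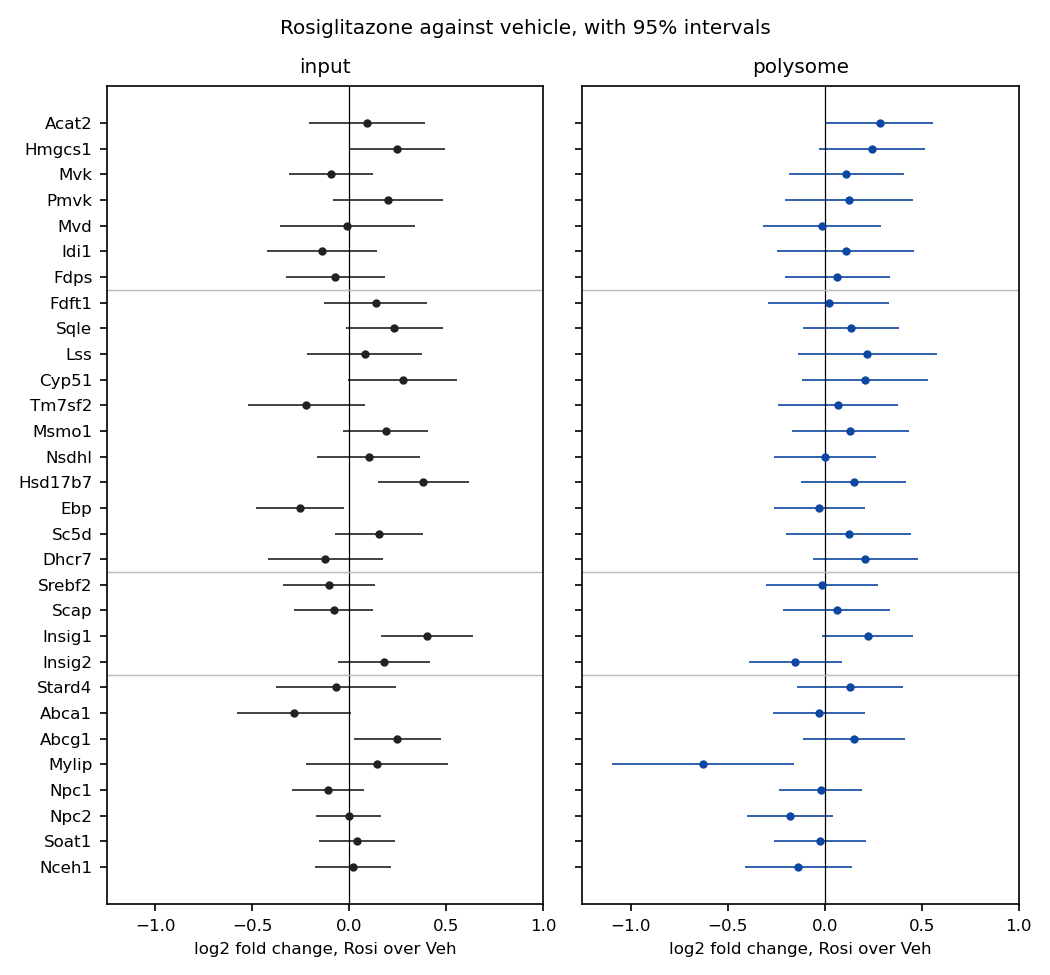
Log2 fold change of Rosi over Veh (horizontal axes) with 95% intervals for the 30 genes in input (left) and polysome RNA (right), in the order of their roles. Insig1 has 0.40 in input and 0.22 in polysome RNA, and Mylip has 0.14 in input and -0.63 in polysome RNA; no gene was called in either.

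Replicates of 1 group differed in the synthesis enzymes together. Among the 18 enzymes, input Veh replicate 1 was above replicate 2 in 15, with a median difference from the group mean of 0.11 on the log2 scale. In input Rosi, replicate 1 was the highest in 12 of 18 and replicate 2 the lowest in 14, with medians of 0.12 and -0.14. Polysome Veh replicate 1 was the highest in 11 and polysome Rosi replicate 3 in 10, with medians of 0.14 and 0.07. Idi1, the isopentenyl diphosphate isomerase, shows it in single values, with 66.5 CPM in polysome Veh replicate 1 against 42.2 and 45.2 in the others. The 12 remaining members had medians between -0.04 and 0.07 in all 11 libraries, so the medians of the enzymes deviated further than theirs in most libraries. With Rosi the 7 mevalonate enzymes had a median log2 fold change of -0.01 in input and 0.11 in polysome RNA. For the 11 later enzymes it was 0.135 and 0.13. The median deviations of single libraries above reached 0.14 in size, and the Rosi medians were not tested against them.

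The comparison of polysome with input within each treatment shows which mRNAs were a larger or smaller share of heavy polysome RNA than of total RNA. It separated the 30 genes far more than Rosi did. In Veh, Insig2 was called higher and Dhcr7 and Lss lower at a log2 fold change beyond 1, against 2.99% of 14042 genes called higher and 6.68% lower. In Rosi, Idi1 was called higher and 0 genes lower, against 6.49% and 4.86%. At an adjusted p under 0.05 with no limit on the fold, 7 members were higher and 13 lower in Veh, against 24.7% and 24.6% of all genes, and 9 were higher and 12 lower in Rosi, against 29.1% and 26% of all genes. Of these, 7 were higher and 11 lower in both treatments, and the share of all genes that passed in both is not given here. The treatments share no library, but both comparisons come from the same fit and both followed GC content, as given below. Their agreement is therefore not an independent repeat. The calls were near the limit in part. Without polysome Veh replicate 1, Insig2 was at 1.00, just under the limit before rounding, and Lss at -0.89, which left Dhcr7 as the sole call, and Lss also fell short without polysome Veh replicate 2 (-0.96) or input Veh replicate 1 (-0.87). Without polysome Veh replicate 3, Mvd (-1.05) and Srebf2 (-1.06) were called as well, in Rosi Idi1 was at 0.98 and not called without polysome Rosi replicate 3, and Mvd was called at -1.06 without input Rosi replicate 2. The median over the members was -0.15 in Veh and -0.14 in Rosi, beside 0.02 and 0.00 over all genes.

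Among the sensing genes the INSIG pair lay opposite to its partners. Insig2 had 42.0 and 36.8 CPM in input Veh and 95.6, 76.7 and 81.5 in polysome Veh, so every polysome library exceeded both input libraries, with a log2 fold change of 1.10 ± 0.12 and an adjusted p of 4.16e-06. In Rosi it had 39.6, 45.2 and 42.4 CPM in input and 77.5, 76.1 and 76.6 in polysome, a log2 fold change of 0.85 ± 0.10. Insig1 was higher in polysome RNA by 0.63 ± 0.11 in Veh and 0.53 ± 0.10 in Rosi. Srebf2 was lower by the same test, with 165 and 162 CPM in input Veh and 70.4, 86.1 and 100 in polysome Veh, a log2 fold change of -0.93 ± 0.15, and -0.77 ± 0.13 in Rosi. Scap, the sterol sensor that carries SREBP2, was at -0.54 ± 0.13 in Veh and -0.31 ± 0.12 in Rosi.

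Along the synthesis route the enzymes fell on both sides. Idi1 had 34.9 and 27.2 CPM in input Veh and 66.5, 42.2 and 45.2 in polysome Veh, a log2 fold change of 0.73 ± 0.18. In Rosi it had 30.6, 25.1 and 24.9 CPM in input and 55.4, 50.1 and 61.7 in polysome, a log2 fold change of 1.05 ± 0.16 with an adjusted p of 5.9e-05. The fractions did not overlap in either treatment. Sc5d, the sterol desaturase, had 47.8 and 40.6 CPM in input Veh and 89.1, 61.9 and 61.6 in polysome Veh, a log2 fold change of 0.68 ± 0.15. In Rosi it had 46.2, 47.9 and 46.5 CPM in input and 72.5, 74.1 and 86.6 in polysome, a log2 fold change of 0.73 ± 0.13. Hmgcs1, with 36.3 and 30.6 CPM in input Veh and 41.7, 35.3 and 36.6 in input Rosi beside the polysome values above, was higher in polysome RNA by 0.52 ± 0.14 and 0.59 ± 0.12 in Veh and Rosi. Msmo1, a methylsterol oxidase, was at 0.30 ± 0.14 in Veh and higher by the test in Rosi at 0.32 ± 0.12. Sqle, Cyp51, Hsd17b7, Acat2 and Pmvk, the phosphomevalonate kinase, passed the test in neither treatment and lay between -0.19 and 0.11.

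The lower enzymes were led by Dhcr7, which reduces the last precursor to cholesterol. It had 33.3 and 31.9 CPM in input Veh and 12.6, 14.5 and 13.4 in polysome Veh, with no polysome library near the input values, a log2 fold change of -1.27 ± 0.14 and an adjusted p of 6.11e-06. In Rosi it had 34.9, 24.0 and 27.0 CPM in input and 15.3, 15.4 and 16.6 in polysome, and its log2 fold change was -0.86 ± 0.13. Lss, the lanosterol synthase that closes the sterol rings, had 27.7 and 22.8 CPM in input Veh and 10.1, 11.5 and 15.8 in polysome Veh, a log2 fold change of -1.01 ± 0.17 with an adjusted p of 0.000224. In Rosi it had 29.5, 21.9 and 24.9 CPM in input and 15.3, 13.5 and 15.1 in polysome, a log2 fold change of -0.80 ± 0.16. Polysome and input did not overlap for either enzyme. Mvd, the mevalonate diphosphate decarboxylase, had 25.4 and 24.7 CPM in input Veh and 12.2, 12.0 and 14.0 in polysome Veh, with a log2 fold change of -0.98 ± 0.17. In Rosi its values were 30.3, 18.6 and 22.5 CPM in input and 13.6, 11.1 and 13.4 in polysome, with -0.90 ± 0.15, the lowest log2 fold change of the list in that treatment. Fdps, Fdft1, the squalene synthase, Tm7sf2 and Nsdhl, a dehydrogenase of the demethylation steps, were lower by the test in both treatments, from -0.71 to -0.34. Ebp at -0.52 and Mvk, the mevalonate kinase, at -0.37 passed the test in Veh and not in Rosi, where they were at -0.22 and -0.09, and the difference between treatments was not called, as given below.

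Among the transport genes, Stard4, a carrier of sterols between membranes, had 27.3 and 19.2 CPM in input Veh and 41.9, 34.5 and 33.1 in polysome Veh, a log2 fold change of 0.65 ± 0.15. In Rosi it had 21.3, 21.1 and 20.8 CPM in input and 38.8, 38.0 and 43.9 in polysome, a log2 fold change of 0.93 ± 0.13. Nceh1, which hydrolyses cholesteryl esters, was higher by 0.40 ± 0.12 and 0.32 ± 0.11. Abcg1 was lower by the test at -0.50 ± 0.12 and -0.52 ± 0.11, while Abca1 was at 0.04 ± 0.15 in Veh and higher by the test in Rosi at 0.37 ± 0.13. Npc1 was lower at -0.69 ± 0.09 and -0.53 ± 0.08. Npc2, with 1419 and 1461 CPM in input Veh and 1399, 1336 and 1373 in input Rosi, was at -0.14 ± 0.09 in Veh and lower by the test in Rosi at -0.24 ± 0.08. Soat1, which makes cholesteryl esters, passed in neither treatment, with -0.12 and -0.10. The difference between Soat1 and Nceh1, the storage enzymes of opposite action, was not tested.

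**Figure D3:**
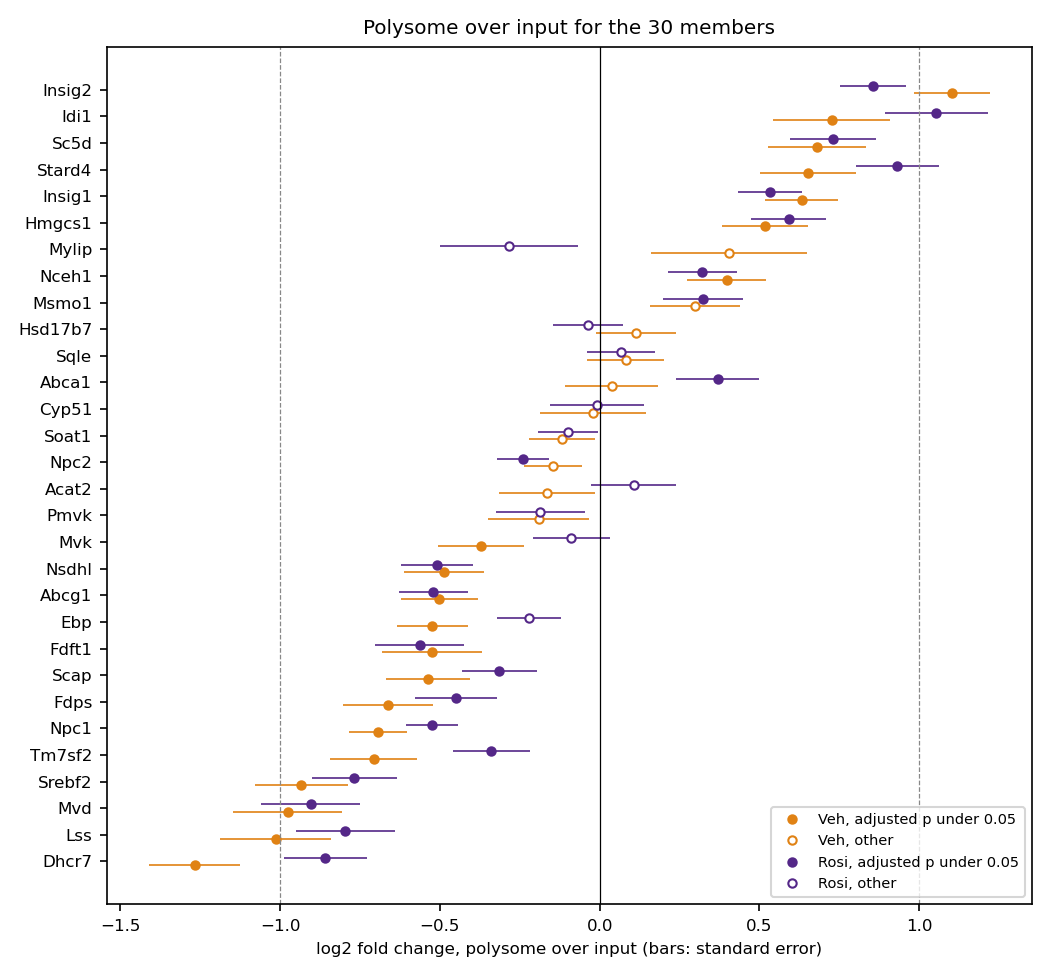
Log2 fold change of polysome over input (horizontal axis) with standard errors for the 30 genes in Veh (orange) and Rosi (purple), ordered by the Veh value; filled points have an adjusted p under 0.05 and dashed lines mark a log2 fold change of 1 either way. Insig2, Idi1, Sc5d and Stard4 stand at the top and Dhcr7, Lss, Mvd and Srebf2 at the bottom in both treatments.

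The order followed base composition. For each gene the GC content was taken from the protein coding transcript with the highest mean TPM, as annotated in GENCODE M21. The 7 members higher in polysome RNA in both treatments had 41.9 to 48.2% GC with a median of 44.5%, and the 11 members lower in both had 45.8 to 59.3% with a median of 52.7%. Spearman's rho between GC content and the polysome over input log2 fold change was -0.78 over the 30 members in Veh and -0.71 in Rosi. Over all 13942 genes with a sequence it was -0.64 and -0.66, so the relation was present over the whole transcriptome as well. These are correlations across genes of the same libraries and are given as a description, since genes are not independent replicates. Transcript length showed little of this, with rho of 0.08 and 0.01 over the members. The GC content of the 3′ untranslated region alone gave -0.69 in Veh and -0.68 in Rosi over the members, and that of the coding sequence -0.58 and -0.55.

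The last 120 coding bases of the main transcript of the 4 called members show this difference of composition, read from GENCODE M21 on mm10, 5′ to 3′, with the stop codon in capitals. Dhcr7 lies at chr7:143823145-143848410 on the plus strand, Lss at chr10:76531588-76557138 on the plus strand, Idi1 at chr13:8885501-8892451 on the plus strand and Insig2 at chr1:121304353-121332589 on the minus strand. These stretches hold 60.0% G and C in Dhcr7 and 54.2% in Lss, against 34.2% in Idi1 and 39.2% in Insig2. The contrast is smaller over the whole main transcripts, which the relation above used. They hold 53.1% in Dhcr7, 52.2% in Lss, 41.9% in Idi1 and 46.0% in Insig2.
Dhcr7: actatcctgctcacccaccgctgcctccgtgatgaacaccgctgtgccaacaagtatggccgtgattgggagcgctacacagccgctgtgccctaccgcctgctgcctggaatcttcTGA
Lss: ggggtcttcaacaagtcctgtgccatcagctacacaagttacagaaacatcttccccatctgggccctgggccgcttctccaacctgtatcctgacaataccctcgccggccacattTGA
Idi1: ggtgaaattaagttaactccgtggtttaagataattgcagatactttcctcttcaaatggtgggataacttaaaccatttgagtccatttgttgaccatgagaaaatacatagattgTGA
Insig2: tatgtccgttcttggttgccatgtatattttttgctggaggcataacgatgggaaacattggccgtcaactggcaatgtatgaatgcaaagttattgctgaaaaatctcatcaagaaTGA

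The libraries themselves differed along the same axis. The deviation of each library from the mean of all 11, taken over 13942 genes, had a rho with GC content of 0.54 to 0.65 in the 5 input libraries and -0.73 to -0.30 in the 6 polysome libraries. The value of -0.73 belonged to polysome Veh replicate 1, the outermost polysome library by principal component, and polysome Veh replicate 3 had -0.30. When a trend on GC content and length was fitted in each library and removed, an alternative chosen after seeing the data, 0 members were called beyond a log2 fold change of 1 in either treatment. Calls over all genes fell as well, to 0.826% higher and 2.28% lower in Veh and to 0.612% and 1.94% in Rosi. Dhcr7 was then at -0.96, Lss at -0.71 and Insig2 at 0.78 in Veh, and Idi1 at 0.44 in Rosi. At an adjusted p under 0.05 with no limit on the fold, 3 members were higher in Veh, Insig2, Insig1 and Stard4, and 12 lower, against 19% and 18.6% of all genes, and in Rosi 6 were higher and 9 lower, against 20.2% and 19.7%. Of the higher genes, Sc5d, Hmgcs1 and Nceh1 no longer passed in either treatment, nor did Idi1 in Veh and Msmo1 in Rosi. The lower genes were not the same ones: Soat1 and Hsd17b7 were added in both treatments, Scap, Abcg1 and Mvk no longer passed in Veh, and Srebf2, Abcg1, Tm7sf2 and Npc2 no longer passed in Rosi. Scap turned from -0.31 as deposited to 0.29 with the trend removed in Rosi, and both passed that threshold. The source of the GC trend was not tested.

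Some members lay further from the median of genes of like composition than others. The spread of those genes around their median is not given here, so whether any distance is unusual was not tested. Hmgcs1 at 0.52 in Veh lay at the median of 0.51 of the 2731 genes within 2.5 percentage points of its GC content, and Scap at -0.54 lay at the median of -0.54 of its 2134 neighbours. Dhcr7 at -1.27 compared with a median of -0.27, Lss at -1.01 with -0.17, and Insig2 at 1.10 with 0.37. Nsdhl and Soat1 had low GC content, 45.8% and 43.7%, and still lay at -0.49 and -0.12 where such genes had medians of 0.39 and 0.50.

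**Figure D4:**
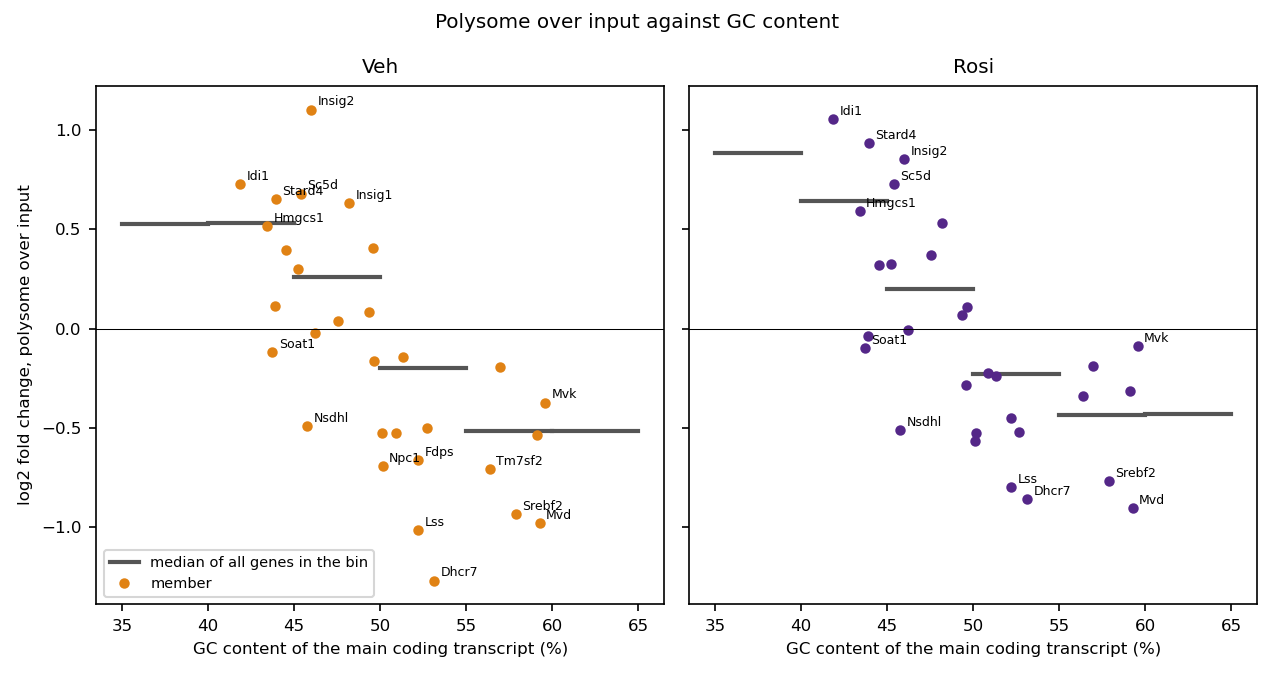
Log2 fold change of polysome over input (vertical axis) against the GC content of the main coding transcript (horizontal axis, %) for the 30 genes in Veh (left) and Rosi (right), with the median of all genes in each GC bin as a grey bar; the outer bins, drawn from 35% and to 65%, hold all genes below 40% or from 60% up. In the bin from 40 to 45% the median is 0.53 in Veh and 0.64 in Rosi, and in the bin from 55 to 60% it is -0.51 and -0.44.

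The transcripts behind a gene's sum also differed between fractions. For Npc1, a retained-intron transcript (ENSMUST00000234044), which has 5 exons, took 64.8%, 56.2% and 53.7% of the gene's estimated counts in polysome Veh and 55.2%, 53.3% and 65.0% in polysome Rosi. In input it took 22.2% and 29.4% in Veh and 28.6%, 24.9% and 28.3% in Rosi. The fractions did not overlap, and Rosi and Veh did within each fraction. Of its 2219 bases 2020 lie in exons of the main coding transcript, which has 25 exons, so reads of those bases fit both transcripts. Summed over protein coding transcripts alone, Npc1 was lower in polysome RNA by a log2 fold change of -1.51 in Veh and -1.30 in Rosi, past the limit of 1 in both.

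Lss showed the same with more spread. Its retained-intron transcript (ENSMUST00000160671), which shares 4662 of 6992 bases with the coding one, took 70.1%, 54.2% and 46.8% of the counts in polysome Veh and 47.9%, 30.1% and 36.5% in polysome Rosi. In input the shares were 15.1% and 29.0% in Veh and 22.7%, 26.3% and 31.5% in Rosi, so polysome Veh lay above all input libraries while polysome Rosi replicate 2 lay below the highest input library. Coding transcripts alone gave Lss -1.80 in Veh and -1.04 in Rosi. The main coding transcript held 58.0, 113.0 and 159.5 estimated counts in polysome Veh. Of its 4667 bases 4662 are shared, so the Veh value rests on few reads split by a model. For Srebf2 a retained-intron transcript (ENSMUST00000230105) took 13.0 to 15.1% in polysome Veh and 6.18 to 8.18% in input Veh, but 11.3 to 12.2% and 9.07 to 12.1% in the Rosi fractions, which overlapped. Among coding transcripts, Hmgcs1 used its second one (ENSMUST00000224188) for 14.6 to 23.4% of counts in input and 0.51 to 16.1% in polysome. Estimated counts assign shared reads by a model, and these shares were compared without a test.

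**Figure D5:**
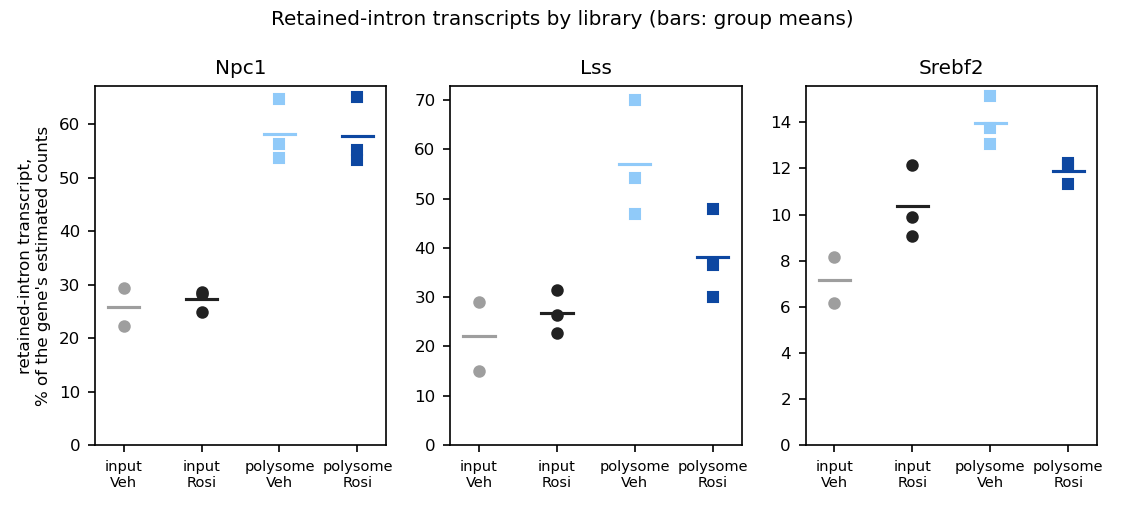
Share of the gene's estimated counts assigned to a retained-intron transcript (vertical axes from 0, %) of Npc1, Lss and Srebf2 in each library, by group, with group means as bars. For Npc1 the 6 polysome libraries lie at 53.3 to 65.0% and the 5 input libraries at 22.2 to 29.4%.

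Translation efficiency, the change of the polysome over input ratio with Rosi, was tested as the interaction of fraction and treatment over the 11 libraries, the same that gave the comparisons above. By edgeR 0 of 30 members were called higher and 0 lower, against 0% and 0% of 14042 genes, with 0 members by DESeq2 and 0 at p under 0.05 before adjustment, which 6.84% of all genes met. The members' median was 0.06, the same as that of all genes to 2 decimals. Dhcr7 had the highest value, 0.41 ± 0.19 with a 95% interval from -0.001 to 0.82, followed by Tm7sf2 at 0.37 ± 0.18 and Abca1 at 0.33 ± 0.20. The polysome levels of Tm7sf2 were 8.07, 9.11 and 8.53 CPM in Veh and 8.90, 9.20 and 9.07 in Rosi, and those of Abca1 were 89.5, 96.7 and 80.3 in Veh and 83.7, 86.2 and 93.3 in Rosi. In both genes the polysome groups overlapped. Mylip had the lowest, -0.69 ± 0.33 with an interval from -1.38 to 0.01, and then came Insig2 at -0.25 ± 0.15 and Hsd17b7 at -0.15 ± 0.16, the latter with 35.2, 26.3 and 30.8 CPM in polysome Veh and 34.6, 34.1 and 34.4 in polysome Rosi. All 7 mevalonate enzymes lay above 0, from 0.00 for Pmvk to 0.33 for Idi1, where 40.9% of all genes lay below 0, and none had an interval without 0. With upper quartile factors the median of all genes moved to -0.01 and Pmvk to -0.065, so the direction of the lowest of these genes depends on the scaling. The interval of every member reached beyond a log2 value of 0.3 on at least 1 side, so a change of that size could lie within the error of any of them. Without polysome Veh replicate 1 the value of Mylip was -0.94 with an adjusted p of 0.0983.

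Promoter windows from RefSeq on GRCm38.p6 matched 24 of the 30 members, and those of Fdps, Fdft1, Sqle, Stard4, Abcg1 and Npc1 were not used. In the 250 bases before the start, on both strands, the letters TCACNCCAC of the sterol regulatory element occurred in 1 member, Hmgcs1, and in 1.04% of 27025 promoters. CCAAT, the letters bound by NF-Y, occurred in 20 of 24 members and 34.5% of all promoters, and GGGCGG, the GC box bound by Sp1, in 19 of 24 and 32.9%. CACGTG, the E-box, occurred in 5 members, Abca1, Hsd17b7, Insig1, Nceh1 and Sc5d, and in 6.05% of promoters. None of these motifs contains another, and all promoters include those of genes silent in these cells. A match is a description of letters and says nothing of binding. The stretch of Hmgcs1 with the match in capitals, which begins 137 bases before the start, is shown because it is the sole match among the 24 members, and it lies at chr13:119690194-119690242 on the plus strand.
Hmgcs1: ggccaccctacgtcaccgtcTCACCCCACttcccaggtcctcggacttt

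Some of the values carry a limit from neighbouring genes, because whether reads were counted by strand is not given in the sources used here. Fdft1 shares 774 of its 4227 exon bases with the opposite-strand gene Ctsb, which had 223 times its reads. Cyp51 shares 166 bases with Akap9 and Npc1 511 with Rmc1, both on the opposite strand, and Tm7sf2 shares 532 with Vps51 on its own strand, which had 3.07 times its reads. For these genes reads of the shared stretches cannot be told apart.

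The wider pathway was read from lists of related genes. Of 9 genes of SREBP processing and degradation, 0 were called with Rosi in either fraction, with 1 higher in input and 0 in polysome RNA at p under 0.05 before adjustment. Mbtps2, the site-2 protease that frees SREBP in the Golgi, was higher in polysome than in input RNA in both treatments. It had 21.1 and 20.9 CPM in input and 35.7, 31.4 and 33.2 in polysome in Veh, a log2 fold change of 0.67 ± 0.12 and an adjusted p of 0.00026, and 19.1, 16.4 and 16.4 CPM in input and 35.8, 32.5 and 36.6 in polysome in Rosi, a log2 fold change of 1.02 ± 0.10. Of 11 LXR and oxysterol genes, 1 was called with Rosi, in polysome RNA. This was Nr1h3, the gene of LXRα, with 7.60, 7.80 and 8.58 CPM in polysome Veh and 14.8, 12.1 and 14.2 in polysome Rosi, a log2 fold change of 0.76 ± 0.14 and an adjusted p of 0.0271. Its groups did not overlap in input either, with 7.22 and 9.38 CPM in Veh and 14.8, 10.8 and 13.2 in Rosi, where the log2 fold change was 0.70 ± 0.17 with an adjusted p of 0.0702. Lpcat3, a phospholipid remodelling gene that LXR is known to induce, had 64.9, 65.5 and 71.2 CPM in polysome Veh and 98.1, 91.1 and 94.0 in polysome Rosi, without overlap, a log2 fold change of 0.48 ± 0.10 and an adjusted p of 0.0557. It was picked after its values were seen. Over the 11 genes of the list the median log2 fold change in polysome RNA was 0.01, with 6 above 0 and 5 below. For Arl4c, Smpdl3a and Pltp, also on the list, the polysome groups overlapped. The known LXR targets among the members were at -0.03 ± 0.11 for Abca1, 0.15 ± 0.12 for Abcg1 and -0.63 ± 0.22 for Mylip in polysome RNA, and the difference of these from Nr1h3 was not tested. Of 17 sterol carriers and receptors, 1 was called with Rosi in each fraction, the scavenger receptor gene Cd36, at 0.89 ± 0.10 in input and 1.03 ± 0.12 in polysome RNA. Between fractions, the LXR list and the carrier list each had 1 gene called lower in polysome RNA and 0 higher, in each treatment. The lowest log2 fold change was -1.31 in Veh and -1.06 in Rosi for the LXR list. For the carriers it was -1.85 and -1.61.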

How the data were processed

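Per the labels and the study's methods, the authors demultiplexed reads with bcl2fastq 2.17, checked them with FastQC and quantified transcripts with Salmon against mm10; the Salmon version is not given in the sources used here. The authors deposited an estimated count and a TPM for each of 117135 transcripts in each library. Estimated counts were summed by gene with GENCODE M21, which named 115973 transcripts, and rounded; transcripts without a gene, 0.381 to 0.464% of reads, stayed out. The deposited TPM were summed by gene for levels between genes and for an alternative on log2(TPM + 1). The 12 libraries have a file each; those titled by the tissue alone were taken as polysome because the others are titled input. The protocol's 4 days of differentiation were kept, although the design text gives another number.

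Counts were tested in R 4.3.3 with edgeR 4.0.16 (filterByExpr, TMM, quasi-likelihood F test, Benjamini-Hochberg over all genes tested). Rosi was compared with Veh within the libraries of each fraction, and polysome with input and the interaction over all 11 libraries. Calls needed an adjusted p under 0.05 and a log2 fold change beyond 0.2 for Rosi against Veh and beyond 1 otherwise. CPM use TMM library sizes over all 11 libraries. Standard errors were derived from the F statistic (absolute log2 fold change divided by its square root), with 95% intervals from the t distribution. DESeq2 1.42.0 and limma 3.58.1 served as alternatives, beside other factors, filters, sets of transcripts, leaving out each library, a replicate block and the added GC and length offsets. The steps were tested on simulated data. Each member called, and the 3 highest and 3 lowest members of each comparison, are given in every library, and the rest by fold or range. Some genes of other lists are named, of which Lpcat3, Fnta and Rabggtb were chosen after their values were seen. Not every gene of those lists that was called is named. The members and lists were chosen with earlier results of these data known.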

Additional observations from a re-analysis of the deposited data

How the results depend on the processing

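With no count filter, 2 members (Insig1, Hsd17b7) were called with Rosi in input and 1 (Mylip, lower) in polysome RNA, and with all 12 libraries as deposited 2 were called in input, where 0 were called otherwise. Over all genes these settings called 907 with no filter and 1054 with 12 libraries in input, in place of 182, and 189 with no filter in polysome RNA, in place of 88. Leaving out 1 library at a time gave 0 to 4 members in input (4 without input Rosi replicate 1), 0 to 1 in polysome RNA (1 without polysome Veh replicate 1), 1 to 5 for polysome over input in Veh (1, Dhcr7, without polysome Veh replicate 1, and 5 without polysome Veh replicate 3) and 0 to 2 in Rosi (0 without polysome Rosi replicate 3, 2 without input Rosi replicate 2). For polysome over input, protein coding transcripts alone gave 5 members in Veh (Srebf2 and Npc1 added) and 3 in Rosi (Lss and Npc1 added). Over all genes they called 1362 and 1584, beside 1358 and 1593 in the main fit. A threshold of 0.2 gave 20 and 21 members, with 6929 and 7730 of all 14042 genes called, so these counts are not particular to the members. GC and length offsets, chosen after seeing the data, gave 0 and 0 members, with 436 and 359 genes called. With limma on log2(TPM + 1) 0 members were called in Rosi, with 868 genes called. Apart from the settings named here, calls fell on the same side, except that Lss in Veh slipped under the limit of 1 with upper quartile factors (-0.99), all 12 libraries (-0.96) and limma (-0.89). With the replicate number as a block, 4 members were called for polysome over input in Veh (Mvd added), 1 in Rosi and 0 elsewhere. Same-numbered Veh and Rosi libraries correlated at -0.18 and -0.023 in input and at -0.395, 0.076 and -0.346 in polysome RNA in their deviations from group means, and same-numbered input and polysome libraries at 0.127 and 0.204 in Veh and at -0.079, -0.005 and -0.131 in Rosi. Deviations from the mean of 2 or 3 libraries sum to 0, so these correlations cannot decide whether same-numbered libraries were paired. The paper describes input as total RNA taken before fractionation. The labels do not say that equal numbers share a culture, so the main fits took no pairs and the block above is the alternative. Input Veh rests on 2 libraries and each other group on 3, and at this size the largest input difference, 0.40 for Insig1, did not pass the adjustment over all genes.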

Other observations

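Farnesyl diphosphate also feeds a branch that makes prenyl groups, dolichol and ubiquinone. Of 15 genes of this nonsterol isoprenoid branch, 0 were called with Rosi in either fraction, by edgeR, with 0 higher and 1 lower in input and 0 in polysome RNA at p under 0.05 before adjustment. Between fractions 8 of the 15 lay above 0 and 7 below in each treatment, with 0 called higher and 2 lower in Veh and 1 higher and 2 lower in Rosi. Fntb, the beta subunit of protein farnesyltransferase, was lower in polysome than in input RNA by a log2 fold change of -1.18 ± 0.16 in Veh and -1.08 ± 0.14 in Rosi, and Rabggta, a subunit of the enzyme that prenylates Rab proteins, by -1.40 ± 0.13 and -1.20 ± 0.12. Their partner subunits lay on the other side, with Fnta at 0.29 ± 0.10 in Veh and 0.47 ± 0.09 in Rosi and Rabggtb at 0.82 ± 0.14 and 0.54 ± 0.12, each at an adjusted p under 0.05 and under the limit of 1. The gene called higher in Rosi is not reported here.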
